A study of Mus musculus with 48 samples.

Results

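Mouse ileum, the last segment of the small intestine, was compared between the day of birth (day 0) and week 4 after birth, a span that runs from the first milk to a diet of chow after weaning. The comparison used 6 of the 48 samples of the series: 3 of ileum at week 4 and 3 of ileum at day 0, taken by region and age from the labels. Both groups were C57Bl/6J mice, the strain being all the labels give as genotype, with males and females in the study and no treatment named. Pups stayed with the dam until day 21 and had chow after that, so the week 4 mice were weaned. The labels call the housing standard germ-free while they also speak of limiting differences in microbial exposure between litters, and which of these applied to the mice was not settled from the sources used here. Each sample was RNA of a 2 cm piece of whole-thickness bowel wall next to the caecum, so epithelium, immune cells, muscle, nerves and vessels are read together. In such bulk RNA, fewer cells of a type and less RNA per cell cannot be told apart. The labels do not say that the samples of an age came from separate litters. The p-values rest on a spread per gene estimated within the groups of all 48 samples, and need not measure the spread between litters. The same ages of duodenum, the first segment, served to ask where the ileum changed differently.

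The newborn small intestine is built for milk. Its ileal enterocytes take up milk proteins and antibodies whole through an apical endocytic system and break them down in large lysosomes, and its brush border carries lactase. Around weaning the epithelium is replaced by cells that digest starch, sucrose and peptides at the brush border, the crypts fill with Paneth cells, which secrete antimicrobial peptides, and lymphocytes settle in the epithelium, the lamina propria and the Peyer's patches. The adult ileum is further known for the recovery of bile acids. The genes below are therefore described in lists by role: digestion and uptake, metabolism, epithelial cell types, growth, immunity, and the cells of the wall.

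Total estimated counts were 25927449, 23536295 and 42029626 in the day 0 samples numbered 1 to 3 and 22138240, 34606300 and 16824021 in the week 4 samples. Between 23449 and 26773 genes had at least 1 count. The share of mitochondrial transcripts was 15.9% to 24.2% at day 0 and 22.1% to 35.2% at week 4, and their part in the results was not tested. Spearman correlation of log2 CPM, estimated counts scaled to library size with TMM normalization, was at least 0.959 within an age and at most 0.895 between ages. One day 0 sample, number 1, had Y-linked Ddx3y (45.2 CPM) and hardly any Xist, and the other 5 samples had Xist, so sex was not balanced. A pair of samples stood apart in position markers. Week 4 number 1 had little Fabp6 and Slc10a2, genes of the distal ileum (42 and 58 CPM, against 1265 and 1970 CPM of Fabp6 and 648 and 287 CPM of Slc10a2 in numbers 2 and 3). Day 0 number 2 had 6.53 CPM of Pdx1 and 89.9 CPM of Onecut2, genes of the proximal bowel whose duodenal means at day 0 were 13.5 and 259.96 CPM, against at most 0.666 and 19.99 CPM in the other day 0 ileum samples. Where a call was lost or gained, or a named fold or a count over a list moved by over 1.5 times, without either sample, the value without it is given.

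By edgeR's quasi-likelihood test at an adjusted p under 0.05, 4163 of 20901 genes were called higher at week 4 (19.9%) and 4001 lower (19.1%), 39.1% in all. The word rose or fell below means such a call, and values with ± are the mean and SD of 3 samples unless marked as SE. Over all genes tested the median log2 fold change was 0.06. Groups that did not overlap in CPM made up 47.7% of all genes. The 52 lists hold 1237 distinct tested genes, of which 53.8% were called. Each day 0 to week 4 count over a list below stands against the 19.9% and 19.1%, and a count near them sets no list apart. Without day 0 number 2 and week 4 number 1 together, 6889 genes were called.

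**Figure D1:**
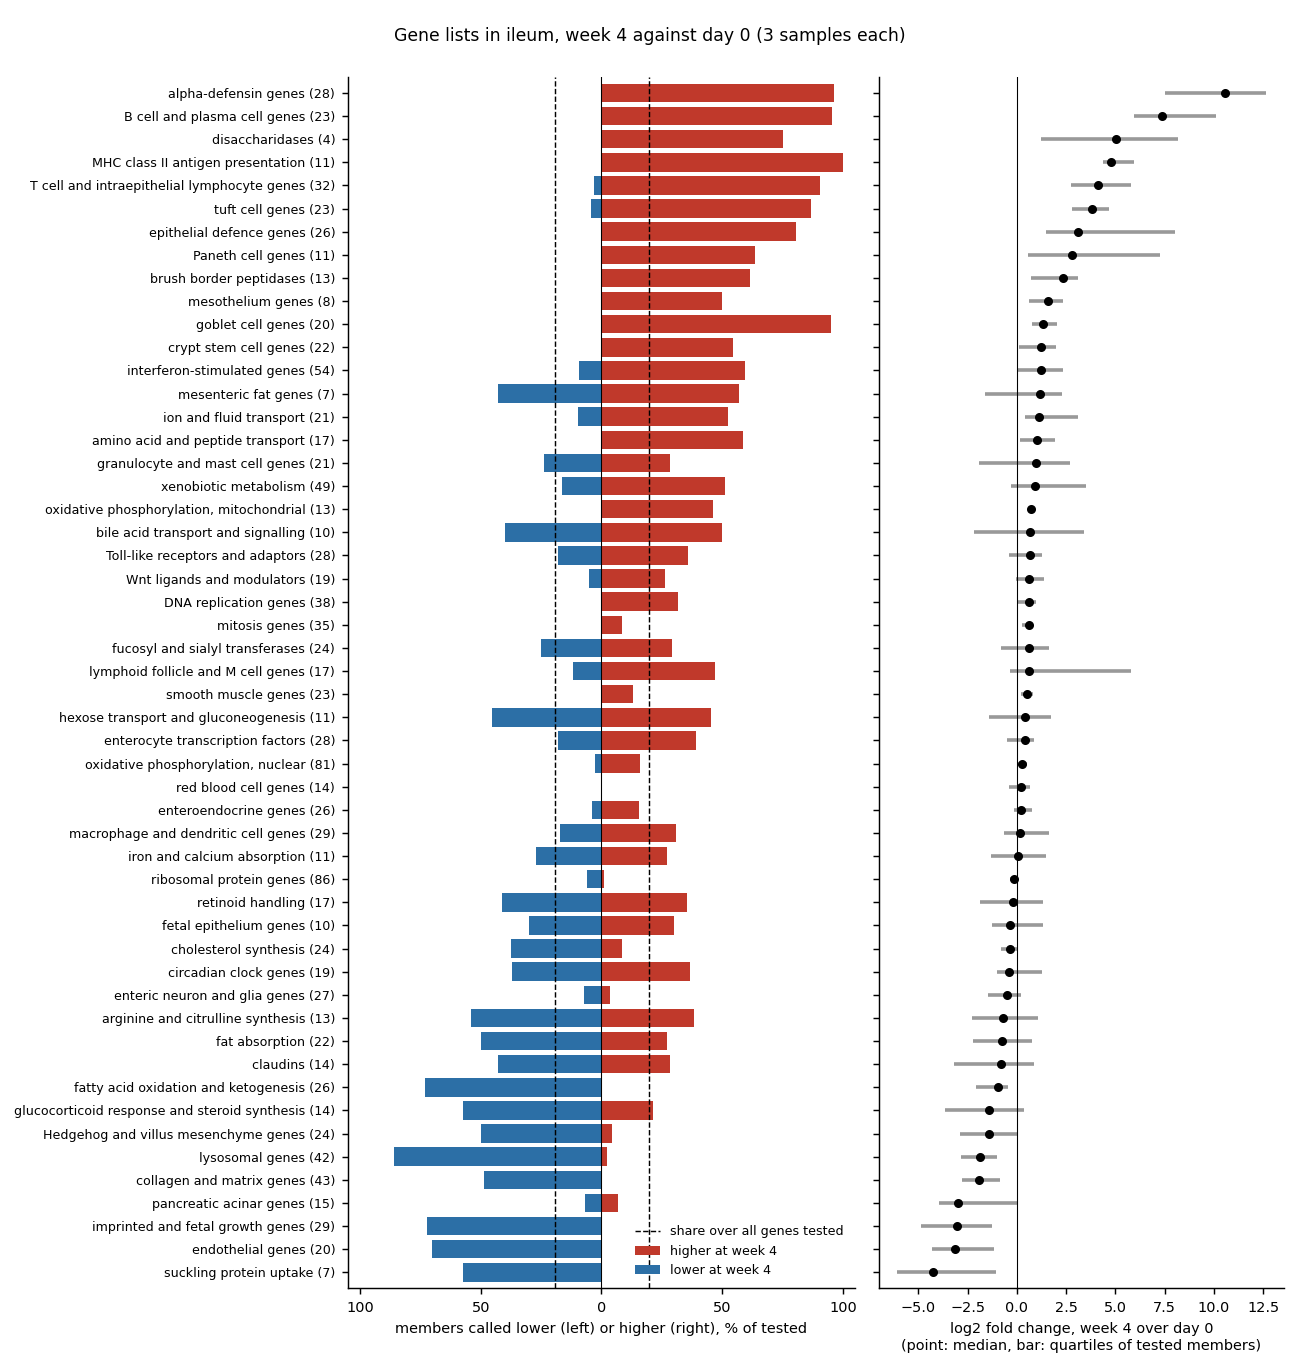
Each row is a gene list with its number of tested members in brackets, ordered by median change. Left, the percentage of members called lower (blue) and higher (red) at week 4, with dashed lines at the 19.1% and 19.9% of all genes tested; right, the median and quartiles of the members' log2 fold change. The endothelial, suckling uptake and imprinted lists lie lowest and the alpha-defensin and B cell lists highest.

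Genes that digest the sugars of solid food rose. Sis, sucrase-isomaltase, stood at 8.46, 14.6 and 23 CPM at day 0 and 7861.5, 3185 and 3000.4 CPM at week 4, which is 304-fold higher (log2 fold change 8.25 ± 0.48 (SE), adjusted p = 2.93e-16). Treh, trehalase, stood at 0.148, 0.92 and 0.381 CPM at day 0 and 209, 109 and 72 CPM at week 4 (log2 fold change 8.12 ± 0.75 (SE), adjusted p = 4.02e-11). The 3 week 4 samples lay above the 3 day 0 samples for both genes, and week 4 number 1 had the most of each. Mgam, maltase-glucoamylase, was already abundant at birth and rose from 1367 ± 177 to 5345 ± 2550.2 CPM . Lct, the milk sugar enzyme lactase, stood at 1079.7, 1428 and 1569.9 CPM at day 0 and 1559.9, 107 and 264 CPM at week 4. Week 4 number 1 kept a newborn level of Lct, the other week 4 samples were low, and the groups overlapped. Lct did not pass the test (log2 fold change -1.08, adjusted p = 0.059), but did without week 4 number 1 (log2 fold change -2.89, adjusted p = 1.19e-07). Some folds moved by over 1.5 times on leaving out 1 sample: Sis (log2 fold change 7.63 without week 4 number 1) and Treh (log2 fold change 8.82 without day 0 number 2).

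Of 13 tested peptidases of the brush border 8 rose and none fell (median 2.33 on the log2 scale), where 19.9% of all genes were called higher. Without week 4 number 1, 7 rose and 1 fell. Anpep, aminopeptidase N, rose from 1310.4 ± 140.03 to 10521 ± 4031 CPM. Dpep1, a dipeptidase, rose from 14.7 to 401 CPM and Xpnpep2, which cuts peptides before proline, from 10.495 to 338 CPM. Ace, Mep1a, Naaladl1 and Enpep did not pass. The transporters that take up the products rose with them: of 17 tested carriers of amino acids and peptides 10 rose and none fell (median 1.02; 7 rose and 2 fell without week 4 number 1, with a median of 0.49). Slc15a1, the peptide carrier PEPT1, stood at 85.4, 96.8 and 106 CPM at day 0 and 1864, 791 and 543 CPM at week 4. Slc1a1, a glutamate carrier, rose from 13.8 to 145 CPM, and Slc6a19, the main carrier of neutral amino acids, from 467 to 983 CPM. The basolateral carriers Slc7a7, Slc7a8 and Slc3a2 had log2 fold changes of -0.28, -0.07 and -0.07 and did not pass. The fold moved by over 1.5 times with 1 sample less for Slc15a1 (log2 fold change 2.77 without week 4 number 1). Calls lost with a sample left out were those of Slc6a19 (without week 4 number 1; adjusted p = 0.1003). New calls with 1 sample less were those of Ace (without week 4 number 1; adjusted p = 0.00802), Slc7a7 (without week 4 number 1; adjusted p = 0.047) and Slc7a8 (without week 4 number 1; adjusted p = 1.34e-05).

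Sugar genes split by route. Slc5a1, the sodium-glucose carrier, rose from 672 ± 117 to 2662 ± 1801 CPM, Slc2a5, the fructose carrier, from 6.37 ± 5.42 to 73.9 ± 48.8 CPM, and Khk, ketohexokinase, which starts fructose breakdown, from 12.6 ± 1.15 to 97.8 ± 57.5 CPM. The genes of gluconeogenesis went the other way: Fbp1 fell from 172 ± 19.4 to 10.7 ± 4.43 CPM, Pck1 from 431 ± 190.2 to 128 ± 92.4 CPM and Slc37a4, the glucose 6-phosphate carrier of the endoplasmic reticulum, from 118 ± 10.6 to 35.6 ± 17.2 CPM. In all, 5 of 11 rose and 5 fell. Their median of 0.40 became -0.30 without week 4 number 1. Single samples moved a fold by over 1.5 times for Slc5a1 (log2 fold change 1.27 without week 4 number 1), Slc2a5 (log2 fold change 4.47 without day 0 number 2), Khk (log2 fold change 2.34 without week 4 number 1) and Pck1 (log2 fold change -2.51 without week 4 number 1).

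**Figure D2:**
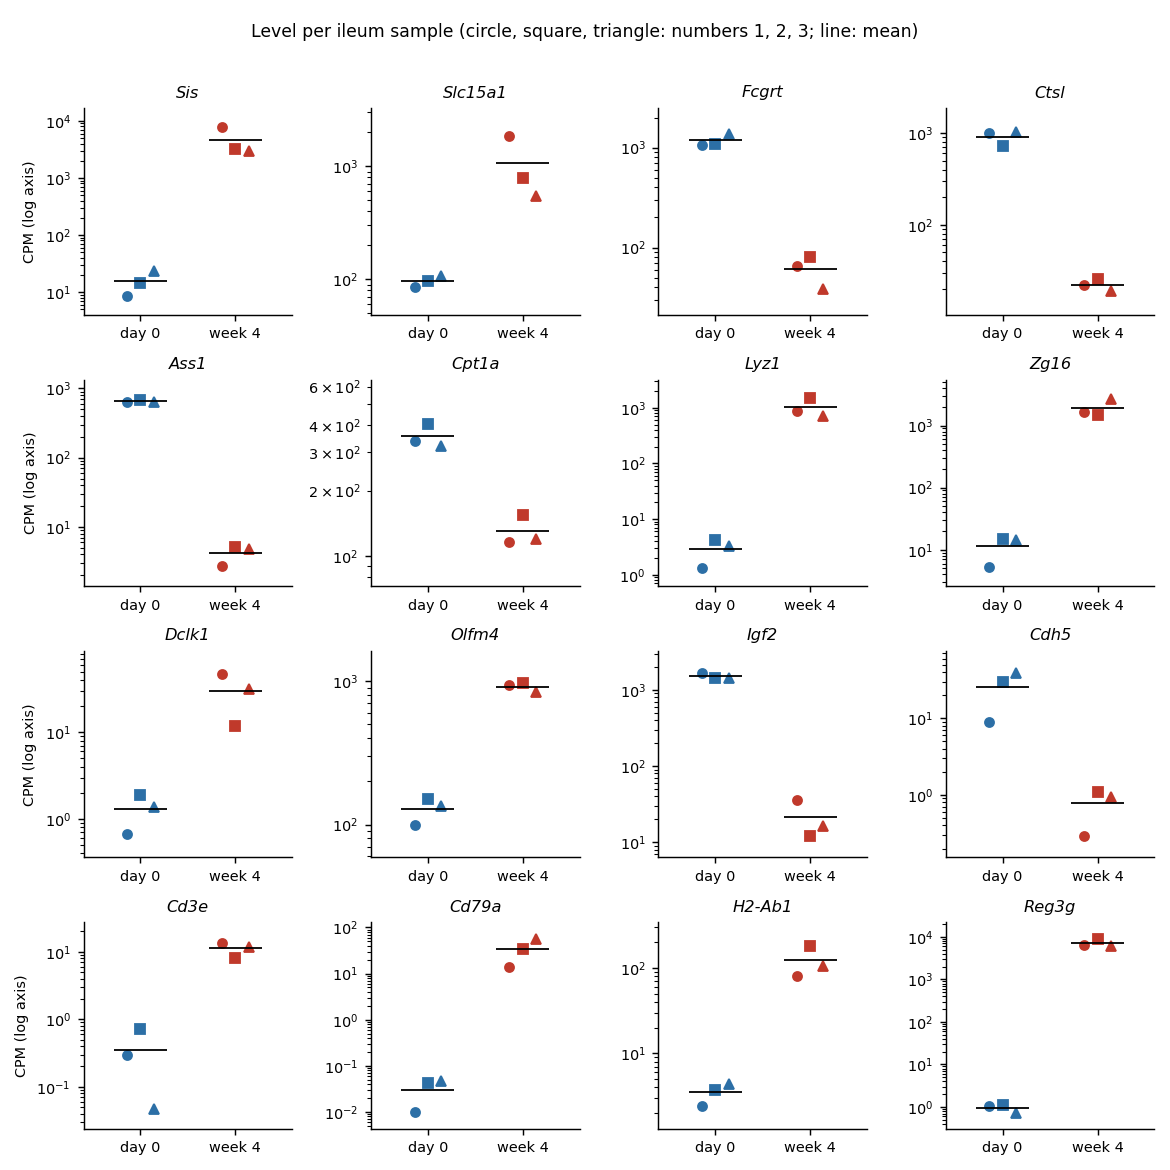
CPM of 16 genes in the 6 ileum samples, on log axes with a separate scale per gene (blue, day 0; red, week 4; symbols, sample numbers; lines, means of 3; a value of 0 drawn at 0.01). In each of the 16 the symbols of the ages do not overlap, and Fcgrt, Ctsl, Ass1, Cpt1a, Igf2 and Cdh5 are the ones lower at week 4.

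Several genes for taking up whole milk protein were far lower at week 4. Fcgrt, the neonatal Fc receptor that carries maternal antibody across the epithelium, stood at 1067, 1094 and 1378 CPM at day 0 and 65.7, 81 and 38.2 CPM at week 4, which is 19.1-fold lower (log2 fold change -4.26 ± 0.35 (SE), adjusted p = 1.37e-12). Dab2, an adaptor for clathrin-coated endocytosis, stood at 579, 449.6 and 581 CPM at day 0 and 4.05, 2.37 and 5.57 CPM at week 4 (log2 fold change -7.10 ± 0.69 (SE), adjusted p = 1.53e-10). The groups overlapped for neither gene. Lrp2, the scavenger receptor megalin, fell from 30.3 ± 7.93 to 0.994 ± 0.804 CPM and Mcoln3, a cation channel of endosomes, from 194 ± 13.5 to 1.21 ± 1.2 CPM. The companion receptor parts Cubn and Amn were at 1.98 and 2.12 times their week 4 level at day 0 without passing the test (adjusted p = 0.101 and 0.0598). In all, 4 of 7 listed uptake genes fell and none rose. The largest falls over all genes of at least moderate level included genes of the same apical system. Mamdc4, endotubin of the apical endosome, fell from 3859.5 ± 1149.6 to 1.07 ± 0.429 CPM, and Folr1, a folate receptor, from 460.5 ± 152 to 0.579 ± 0.1535 CPM. Hyal5, a hyaluronidase gene, was at 150.15, 148 and 131 CPM at day 0 and at 0 counts in all 3 week 4 samples, at least 2991-fold lower (3 counts over the group taken as the floor). Folds that moved by over 1.5 times on leaving out a sample were those of Lrp2 (log2 fold change -5.92 without week 4 number 3) and Mcoln3 (log2 fold change -8.41 without week 4 number 1). One sample less gave a call for Amn (without day 0 number 2 or week 4 number 1; lowest adjusted p = 0.0472).

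Lysosomal genes fell together. Of 42 tested, 36 fell and 1 rose (median -1.85), against 19.1% of all genes called lower, and 34 to 37 fell under each alternative tried. Ctsl, cathepsin L, stood at 1003, 729.6 and 1016 CPM at day 0 and 22.1, 25.5 and 19.2 CPM at week 4 (log2 fold change -5.36 ± 0.63 (SE), adjusted p = 9.62e-09). Glb1, the lysosomal beta-galactosidase, fell from 1359 ± 394 to 41.9 ± 11.1 CPM and Lgmn, legumain, from 1717 ± 899.6 to 66.2 ± 34.85 CPM. Their summed level was 24986, 14514 and 16863 CPM at day 0 and 3876, 4169 and 2832 CPM at week 4, and the groups did not overlap. Falls were small for Ppt1, Scarb2 and Psap (log2 fold change -0.60, -0.52 and -0.84), and Ctsc, a cathepsin of leukocytes as well, rose (log2 fold change 0.63). Calls that ended on leaving out a sample were those of Scarb2 (without day 0 number 2, week 4 number 1 or week 4 number 3; highest adjusted p = 0.147) and Psap (without day 0 number 1 or week 4 number 3; highest adjusted p = 0.114).

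Genes of citrulline and arginine metabolism, amino acids that sucklings form in the gut because milk holds little arginine, changed in both directions. Ass1, argininosuccinate synthase, stood at 642, 678 and 644 CPM at day 0 and 2.76, 5.16 and 4.83 CPM at week 4, 153-fold lower (log2 fold change -7.26 ± 0.49 (SE), adjusted p = 1.08e-14), and Asl, the next enzyme, fell from 123 ± 35 to 13.2 ± 2.18 CPM. Cps1, the mitochondrial carbamoyl phosphate synthase, fell less, from 2720.5 ± 339 to 568 ± 142 CPM. Arg2, a mitochondrial arginase that breaks arginine down, went the opposite way, at 0, 0.335 and 0.309 CPM at day 0 and 211, 53.8 and 75.7 CPM at week 4. In all 7 of 13 fell and 5 rose. The rises of Otc and Glud1 did not pass without week 4 number 1. With a sample less the fold moved by over 1.5 times for Arg2 (log2 fold change 8.14 without week 4 number 1).

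Genes of fat burning fell. Of 26 tested genes of fatty acid oxidation and ketone synthesis 19 fell and none rose (median -0.95). Cpt1a, the entry step of fatty acids into mitochondria, stood at 337, 405 and 322 CPM at day 0 and 117, 155 and 120.2 CPM at week 4 (log2 fold change -1.44 ± 0.17 (SE), adjusted p = 7.98e-09), and the groups did not overlap. Pdk4, which turns glucose oxidation down, fell from 57.7 ± 42.2 to 3.4 ± 2.12 CPM and Ppara, the nuclear receptor that drives these genes, from 30.8 ± 4.96 to 14.9 ± 2.62 CPM. Of 22 genes of fat absorption and lipoprotein assembly 11 fell and 6 rose. Apoa4 fell from 14684 ± 2849.5 to 1233 ± 1214 CPM and Cd36, a fatty acid carrier, from 202 ± 85 to 13.3 ± 13.9 CPM (log2 fold change -3.94, and -5.29 without week 4 number 1). Fabp2, the intestinal fatty acid binding protein, rose from 2042 ± 312 to 5209 ± 1552 CPM, while Apob did not pass (log2 fold change 0.34). Pnliprp2, a lipase known for the digestion of milk fat, rose from 3.2 ± 1.254 to 30.2 ± 13.8 CPM. Some folds moved by over 1.5 times on leaving out 1 sample: Pdk4 (log2 fold change -3.53 without day 0 number 3) and Apoa4 (log2 fold change -4.81 without week 4 number 1).

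More cholesterol synthesis genes were called in single steps within the span than over the whole of it. Of 24 genes 9 fell and 2 rose from day 0 to week 4, with a median of -0.34. That is 45.8% called, against 39.1% of all genes, of which 19.1% were called lower and 19.9% higher. Under the alternatives 7 to 13 fell, and none rose without day 0 number 2, day 0 number 3 or week 4 number 2. Fdps, which makes farnesyl diphosphate, fell from 179 ± 53.7 to 60.3 ± 12.5 CPM. Sqle, squalene epoxidase, stood at 116, 56.5 and 70.1 CPM at day 0 and 109, 223 and 96.6 CPM at week 4. The groups overlapped, and it passed in the whole fit (log2 fold change 0.82, adjusted p = 0.0176) but not without day 0 number 2, day 0 number 3 or week 4 number 2. From day 0 to day 2, in contrast, 18 of the 24 fell and none rose, where 1.33% of all genes were called lower. From week 2 to week 3, 17 rose and none fell, where 11.5% of all genes were called higher. Sqle averaged 80.8 ± 31.2 CPM at day 0 and 36.6 ± 7.42 CPM at day 2, and went from 23.8 ± 7.91 to 83.6 ± 13.1 CPM between weeks 2 and 3.

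Of 10 tested bile acid genes 5 rose and 4 fell (median 0.68). Slc10a2, the apical sodium-dependent bile acid carrier ASBT, stood at 5.68, 3.35 and 2.45 CPM at day 0 and 58, 648 and 287 CPM at week 4 (log2 fold change 6.45 ± 0.57 (SE), adjusted p = 1.41e-11), and Fabp6, the bile acid binding protein of ileal enterocytes, at 22, 39.99 and 25 CPM at day 0 and 42, 1265 and 1970 CPM at week 4 (log2 fold change 5.24 ± 1.07 (SE), adjusted p = 1.86e-04). Both were higher in every week 4 sample than in every day 0 sample, with week 4 number 1 far below the other week 4 samples. Without week 4 number 1 the log2 fold change was 5.79 for Fabp6 and 6.92 for Slc10a2. Slc51b, a subunit of the basolateral exporter, rose from 58.1 ± 8.72 to 144 ± 27.7 CPM, and Abcc3, another exporter, from 4.78 ± 1.2 to 81.2 ± 28.6 CPM. Falls were seen for Abcb11, the bile salt export pump best known from liver (from 21.1 ± 15.4 to 0.16 ± 0.0884 CPM), for Abcc2 (from 2118 ± 449 to 410.5 ± 156 CPM) and for the receptor Nr1h4, known as FXR (from 271 ± 9.41 to 91.2 ± 40.6 CPM). Fgf15, the hormone that FXR induces in ileum, stood at 45, 25.5 and 65.8 CPM at day 0 and 10.51, 101 and 86.4 CPM at week 4, with overlap and no call (adjusted p = 0.665). Its group mean had been higher in between, 174 ± 18.3 CPM at day 2 and 285 ± 45.9 CPM at week 2. The fold moved by over 1.5 times with 1 sample less for Slc10a2 (log2 fold change 5.49 without week 4 number 2), Fabp6 (log2 fold change 4.46 without week 4 number 3) and Abcb11 (log2 fold change -6.32 without day 0 number 3).

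Genes of salt and water transport rose more often than they fell, with 11 of 21 higher and 2 lower (median 1.12). Clca4a, a calcium-activated channel regulator of enterocytes, stood at 1.595, 2.13 and 1.12 CPM at day 0 and 1492, 1589.7 and 837 CPM at week 4. Car4, a membrane carbonic anhydrase, rose from 0.257 ± 0.168 to 113 ± 67.9 CPM, Slc9a2, a sodium-hydrogen exchanger, from 6.28 ± 0.805 to 218 ± 61 CPM, and Slc5a8, a carrier of short-chain fatty acids, from 16.3 ± 12.9 to 390.2 ± 139 CPM. Aqp8, a water channel, fell from 2.6 ± 1.85 to 0.0331 ± 0.034 CPM. Cftr, the chloride channel of crypts, did not pass (adjusted p = 0.0799). Of 11 genes of iron and calcium uptake 3 rose and 3 fell, where 19.9% of all genes were called higher and 19.1% lower. Vdr, the vitamin D receptor, rose from 30.9 ± 4.49 to 247 ± 16.3 CPM and Trpv6, its calcium channel target, from 0.307 ± 0.259 to 5.48 ± 5.59 CPM, whereas Slc40a1, the iron exporter ferroportin, fell from 808 ± 72 to 118 ± 37 CPM and Slc11a2, the iron importer DMT1, from 152 ± 50.2 to 45.3 ± 7.945 CPM. Single samples moved a fold by over 1.5 times for Slc5a8 (log2 fold change 5.46 without day 0 number 1), Aqp8 (log2 fold change -5.50 without day 0 number 2) and Trpv6 (log2 fold change 2.89 without week 4 number 3). One sample less gave a call for Cftr (without day 0 number 2; adjusted p = 0.0295).

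Detoxifying genes rose more often than they fell, 25 against 8 of 49 tested (median 0.90; 20 and 10 without week 4 number 1). Cyp3a11, a main drug-metabolising cytochrome P450, stood at 0, 0 and 0.167 CPM at day 0 and 244, 83.5 and 156 CPM at week 4, and Cyp3a25 rose from 0.369 ± 0.228 to 149 ± 53 CPM. Cyp2b10 rose from 0.0238 ± 0.0412 to 35.4 ± 36.7 CPM. Cyp1a1, the classic target of the aryl hydrocarbon receptor, had 0 counts in all day 0 samples and stood at 1.12, 0.25 and 4.35 CPM at week 4, at least 44.2-fold higher. Several glutathione transferases and glucuronosyl transferases fell instead, Gsta2 from 22.7 ± 5.75 to 0.0979 ± 0.0928 CPM and Ugt2b5 from 119.8 ± 20.3 to 15.1 ± 2.25 CPM. Nr1i3, the nuclear receptor CAR that induces Cyp2b10 in liver, fell from 59.99 ± 5.56 to 18.2 ± 14.7 CPM. Retinoid genes were mixed, with 6 of 17 higher and 7 lower. Rdh7 and Rdh16, retinol dehydrogenases, rose from 0.566 to 11.3 CPM and from 1.91 to 26.9 CPM, and Lrat, which stores retinol as ester, fell from 54.5 ± 8.95 to 9.9 ± 6.44 CPM. Folds that moved by over 1.5 times on leaving out a sample were those of Cyp3a11 (log2 fold change 15.38 without day 0 number 3), Cyp2b10 (log2 fold change 13.20 without day 0 number 3), Cyp1a1 (log2 fold change 7.44 without week 4 number 3), Gsta2 (log2 fold change -9.02 without week 4 number 3), Nr1i3 (log2 fold change -2.65 without week 4 number 1), Rdh7 (log2 fold change 3.33 without week 4 number 1) and Lrat (log2 fold change -3.16 without week 4 number 1). For Cyp3a11, Cyp2b10 and Cyp1a1, where 1 age then had 0 counts in every sample left, such a fitted value depends on the prior count and is no bound.

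Transcription factors of enterocytes were mixed. Of 28 tested 11 rose and 5 fell (median 0.39). Without week 4 number 1 it was 9 and 7 (median 0.14), and without day 0 number 2 as well 7 and 7 (median 0.20). Prdm1, the factor known as Blimp1 that holds the suckling program in the mouse gut, stood at 169, 140.5 and 102 CPM at day 0 and 20.7, 29.9 and 19.2 CPM at week 4 (log2 fold change -2.55 ± 0.29 (SE), adjusted p = 2.62e-09). Klf4 rose from 107 ± 8.65 to 471 ± 101 CPM and Hnf4a from 412 ± 53.9 to 750.2 ± 117 CPM. Cdx2 and Gata4 did not pass (log2 fold change 0.02 and -0.34). Genes of fucosyl and sialyl transferases and related enzymes were mixed, with 7 of 24 higher and 6 lower. These counts are not far from the 19.9% of all genes called higher and the 19.1% called lower. B3galt5 rose from 0.904 ± 0.477 to 74.2 ± 53.2 CPM and St3gal4 from 272 ± 47.8 to 1417 ± 458 CPM, while St3gal5 fell from 32.3 ± 1.92 to 0.952 ± 0.541 CPM and St3gal1 from 385 ± 26.4 to 20.5 ± 1.65 CPM. Fut2, which fucosylates the epithelial surface, stood at 12.6, 23.3 and 18.3 CPM at day 0 and 26.2, 91.7 and 23.2 CPM at week 4. It passed (log2 fold change 1.38, adjusted p = 0.00893), but week 4 number 2 carried the rise and without it the log2 fold change was 0.44 (adjusted p = 0.431). A sample left out moved the fold by over 1.5 times for B3galt5 (log2 fold change 5.61 without week 4 number 2). Called only with a sample left out were Gata4 (without week 4 number 1; adjusted p = 0.00353).

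Genes of Paneth cells, secretory cells at the crypt base, rose. Lyz1, the Paneth cell lysozyme, stood at 1.34, 4.18 and 3.28 CPM at day 0 and 877, 1501 and 721 CPM at week 4 (log2 fold change 8.46 ± 0.53 (SE), adjusted p = 1.77e-15). Itln1, an intelectin, rose from 0.591 ± 0.329 to 793 ± 417 CPM, Ang4, an antimicrobial ribonuclease, from 1.46 ± 0.382 to 97.6 ± 33.7 CPM, and Mmp7, the protease that activates alpha-defensins, from 7.42 ± 1.01 to 115 ± 57.9 CPM. Of 11 Paneth cell genes 7 rose and none fell. Of 45 listed alpha-defensin genes and pseudogenes 28 passed the low-count filter and 27 of these rose. A gene that is 0 at day 0 can pass that filter only through later ages, so this count is a description. Defa24, Defa3 and Defa17 were plain already at birth, and Defa24 stood at 43.9, 70.2 and 69.7 CPM at day 0 and 650.35, 833 and 779 CPM at week 4. Defa36, Defa33 and Defa21 had 0 counts in the 3 day 0 samples and averaged 336, 235 and 177 CPM at week 4, at least 11182, 8188 and 6052-fold higher. The median over the 28 was 10.58, or 10.26 with the 9 genes at 0 set to their bound. These genes are near copies of each other, so the split of reads among them rests on the authors' estimation and the summed level is firmer: 77.7, 124 and 128 CPM at day 0 and 3875, 6212 and 4316 CPM at week 4.

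Goblet cell genes rose as well, 19 of 20 with none lower (median 1.33). Muc2, the main secreted mucin, stood at 328, 504 and 610 CPM at day 0 and 1444, 1992 and 2477 CPM at week 4 (log2 fold change 2.04 ± 0.42 (SE), adjusted p = 1.80e-04). Zg16, a lectin of the mucus, rose from 11.4 ± 5.24 to 1932 ± 649 CPM, Fcgbp, which binds mucin, from 2303 ± 191 to 10000 ± 1480.1 CPM, and Clca1, a mucus protease, from 674 ± 173 to 2465 ± 814 CPM. Atoh1, the factor that sets the secretory fate, rose from 11.3 ± 2.12 to 28.4 ± 6.58 CPM. The week 4 samples lay above the day 0 samples for each of these 5 genes. Enteroendocrine genes were seldom called, with 4 of 26 higher and 1 lower (3 lower without week 4 number 3). Tac1 rose from 1.89 ± 0.562 to 9.05 ± 1.21 CPM, Gcg, which encodes the GLP peptides, from 20.2 ± 5.91 to 38.3 ± 1.45 CPM (a call lost without day 0 number 3), and Ghrl, ghrelin, fell from 15 ± 3.93 to 3.7 ± 1.09 CPM. Chga, Chgb, Cck, Sct, Sst, Pyy and Nts did not pass. Nts, neurotensin, stood at 144, 97.5 and 164 CPM at day 0 and 129, 87.7 and 389.8 CPM at week 4, with week 4 number 3 above all others. New calls with 1 sample less were those of Sct (without week 4 number 3; adjusted p = 0.02575).

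Genes of tuft cells, chemosensory cells that respond to parasites and succinate, showed a broad rise. Of 23 tested 20 rose (median 3.80), where 19.9% of all genes were called higher. Members near 0 at day 0 can pass the low-count filter only through other groups, so this count and median are a description. Dclk1, the common marker, stood at 0.668, 1.88 and 1.38 CPM at day 0 and 46.4, 11.9 and 31.8 CPM at week 4 (log2 fold change 4.52 ± 0.68 (SE), adjusted p = 1.22e-06). Pou2f3, the factor that defines the lineage, rose from 0.132 ± 0.176 to 3.14 ± 1.4 CPM, Trpm5, the taste channel, from 0.569 ± 0.249 to 14.6 ± 6.07 CPM, Rgs13 from 0.217 ± 0.356 to 15.6 ± 9.21 CPM and Chat, which makes acetylcholine, from 0.0342 ± 0.00935 to 1.004 ± 0.489 CPM. Il25, the tuft cell cytokine, had 0 and 4 counts in the groups and was not tested. Hpgds, a prostaglandin D synthase on the list, fell from 60.3 ± 1.95 to 4.51 ± 1.69 CPM. Some folds moved by over 1.5 times on leaving out 1 sample: Pou2f3 (log2 fold change 6.56 without day 0 number 2) and Rgs13 (log2 fold change 9.74 without day 0 number 2).

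Crypt stem cell genes rose in 12 of 22 cases and fell in none (median 1.22). Olfm4 stood at 99.2, 150.4 and 135 CPM at day 0 and 946, 967 and 843 CPM at week 4 (log2 fold change 2.84 ± 0.47 (SE), adjusted p = 5.42e-06). Lgr5, a receptor of the Wnt pathway that marks the stem cell, rose from 13.6 ± 1.72 to 31.4 ± 8.435 CPM, Ascl2 from 0.391 ± 0.176 to 1.57 ± 0.279 CPM, Smoc2 from 9.27 ± 2.9 to 37.8 ± 13.7 CPM and Axin2, a Wnt target, from 16 ± 2.64 to 73.4 ± 6.6 CPM. Sox9, Rnf43, Znrf3 and Ephb2 lay at log2 fold changes of -0.01, 0.08, -0.03 and 0.12 and did not pass. Proliferation genes did not follow as clearly. Of 35 mitosis genes 3 rose and none fell, with a median of 0.60, and 19 rose when the 8 samples absent from the authors' normalized tables were left out. None of the 35 rose without day 0 number 1, and 1 without day 0 number 2 and week 4 number 1 together. Mki67 stood at 67.4, 120.2 and 113 CPM at day 0 and 155, 190.5 and 131 CPM at week 4, without overlap but without a call (adjusted p = 0.197). Top2a was the mitosis gene with the largest rise, from 62.1 ± 14.3 to 141 ± 27.1 CPM. Of 38 DNA replication genes 12 rose, among them Mcm3 (from 8.4 ± 2.56 to 24 ± 2.13 CPM) and Gins1 (from 1.08 ± 0.22 to 3.26 ± 0.457 CPM), and 22 rose without those 8 samples but 7 without day 0 number 3. The call was lost on leaving out 1 sample for Top2a (without day 0 number 1; adjusted p = 0.0642).

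Genes of fetal growth fell. Of 29 imprinted and fetal growth genes tested 21 fell and none rose (median -3.05). H19, an imprinted noncoding RNA, stood at 8006, 6751.5 and 8375 CPM at day 0 and 0.47, 0.469 and 0.748 CPM at week 4 (log2 fold change -13.78 ± 0.96 (SE), adjusted p = 2.89e-14). Igf2, the fetal growth factor next to H19, stood at 1683, 1421 and 1444 CPM at day 0 and 36.1, 12.1 and 16.4 CPM at week 4 (log2 fold change -6.14 ± 0.58 (SE), adjusted p = 6.73e-11). Cdkn1c, an imprinted cell cycle inhibitor, fell from 644 ± 116 to 5.59 ± 0.3575 CPM, Mest from 36.1 ± 22.8 to 0.591 ± 0.348 CPM, Plagl1 from 177 ± 27.4 to 3.37 ± 3.31 CPM and the noncoding Meg3 from 311 ± 52.6 to 22.6 ± 3.58 CPM. Igf2bp1, an RNA-binding protein of fetal tissue, fell from 37.1 ± 5.29 to 0.499 ± 0.628 CPM, Trim71 from 27.9 ± 5.11 to 0.563 ± 0.398 CPM and Igf2bp3 from 122 ± 15.4 to 14.7 ± 5.63 CPM. Gnas, Ptn and Lin28b did not pass. The fetal epithelium list was mixed, 3 of 10 higher and 3 lower (median -0.34). Without day 0 number 2 and week 4 number 1 together 1 was lower and the median was 0.84. Krt7 fell from 155 ± 25.3 to 52.2 ± 0.868 CPM, and Il33 rose from 4.07 ± 0.972 to 31.1 ± 30.8 CPM (log2 fold change 2.93, 1.68 without week 4 number 1). Single samples moved a fold by over 1.5 times for Igf2 (log2 fold change -6.75 without week 4 number 1), Plagl1 (log2 fold change -6.87 without week 4 number 3), Igf2bp1 (log2 fold change -8.03 without week 4 number 3) and Trim71 (log2 fold change -6.36 without week 4 number 3).

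Many lymphocyte genes were barely read in the newborn ileum and were plain at week 4, though the T cell list as a whole was not near 0 at birth. Of 32 tested T cell and intraepithelial lymphocyte genes 29 rose and 1 fell (median 4.13), where 19.9% of all genes were called higher. The summed level of the list was 72, 74.1 and 75.2 CPM at day 0 and 274, 239 and 275 CPM at week 4, a smaller change than that median. Cd3e, part of the T cell receptor complex, stood at 0.297, 0.711 and 0.0476 CPM at day 0 and 13.7, 7.999 and 12 CPM at week 4 (log2 fold change 5.08 ± 0.62 (SE), adjusted p = 1.60e-08), and Cd8a at 0.334, 0.293 and 0.238 CPM at day 0 and 18.1, 13.8 and 15.9 CPM at week 4. Gzma and Gzmb, granzymes of cytotoxic cells, rose from 0.714 ± 0.507 to 56 ± 10.8 CPM and from 0.0776 ± 0.1145 to 29.9 ± 6.05 CPM, Trdc, of gamma-delta T cells, from 0.553 ± 0.243 to 7.0005 ± 0.783 CPM, and Itgae, the integrin that holds lymphocytes in the epithelium, from 0.795 ± 0.257 to 10.2 ± 1.5 CPM. Foxp3 and Cd28 did not pass (log2 fold change 0.46 and 0.33). Folds that moved by over 1.5 times on leaving out a sample were those of Cd3e (log2 fold change 6.11 without day 0 number 2), Gzma (log2 fold change 7.003 without day 0 number 2) and Gzmb (log2 fold change 10.69 without day 0 number 2).

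B and plasma cell genes had the highest median of the immune lists (7.34). Of 23 tested 22 rose and none fell, where 19.9% of all genes were called higher. A member near 0 at day 0 can pass the low-count filter only through other groups, so this count and ranking are a description. The same holds for such members of the T cell and MHC class II lists. Cd79a, part of the B cell receptor complex, stood at 0, 0.0418 and 0.0476 CPM at day 0 and 14.1, 33.4 and 55.6 CPM at week 4 and Jchain, the joining chain of secreted IgA, at 0.148, 0.0837 and 0.0952 CPM at day 0 and 11.7, 23.8 and 55.2 CPM at week 4. Igha, the IgA heavy chain, and Igkc, the kappa light chain, had 0 counts in the 3 day 0 samples. Igha stood at 22.9, 62 and 95.6 CPM at week 4, at least 1836-fold higher, and Igkc was at least 2999-fold higher. Naive B cell genes were plain beside them: Ighm stood at 0.482, 0.753 and 0.809 CPM at day 0 and 44.5, 98.9 and 154 CPM at week 4 and Ighd rose from 0.00793 ± 0.0137 to 52.6 ± 30.4 CPM. The summed level of the list was 6.23, 11.1 and 12.3 CPM at day 0 and 309, 686 and 1165 CPM at week 4, so the week 4 samples differed among themselves, with number 1 lowest. Follicle genes rose in 8 of 17 cases (5 with a mean count of at least 10, where fewer were tested), and Madcam1 and S1pr2 fell. Cxcr5, the homing receptor for follicles, rose from 0.223 ± 0.314 to 11.9 ± 6.66 CPM, Ltb from 0.128 ± 0.0483 to 7.22 ± 3.84 CPM and Spib from 0.256 ± 0.359 to 23.4 ± 8.93 CPM. Ccr7 had 0 counts at day 0 and averaged 2.68 CPM at week 4, at least 80.1-fold higher. Gp2, the M cell receptor, averaged 0.269 CPM at week 4, a call that was lost on leaving out any one of the day 0 samples or week 4 number 3. Whether a 2 cm piece held a Peyer's patch is not given in the labels. A sample left out moved the fold by over 1.5 times for Cd79a (log2 fold change 10.501 without day 0 number 3), Jchain (log2 fold change 7.28 without week 4 number 3), Igkc (log2 fold change 14.08 without week 4 number 3), Ighd (log2 fold change 13.77 without day 0 number 3), Cxcr5 (log2 fold change 7.97 without day 0 number 2) and Spib (log2 fold change 8.91 without day 0 number 2). Calls lost with a sample left out were those of Madcam1 (without day 0 number 3 or week 4 number 3; highest adjusted p = 0.0849). For Igkc and Ighd, where 1 age then had 0 counts in every sample left, such a fitted value depends on the prior count and is no bound.

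MHC class II genes, which present antigen to CD4 T cells, rose as a whole list, 11 of 11, under every alternative tried (median 4.76), where 19.9% of all genes were called higher. H2-Ab1 stood at 2.45, 3.72 and 4.4 CPM at day 0 and 80.6, 183 and 105.2 CPM at week 4 (log2 fold change 5.12 ± 0.51 (SE), adjusted p = 2.63e-10). Cd74, the invariant chain, rose from 10.7 ± 4.59 to 266 ± 104 CPM, and Ciita, the coactivator that switches the class II genes on, from 0.56 ± 0.229 to 23.1 ± 9.74 CPM. H2-Ob and H2-Oa, the DO chains of B cells, rose from 0.0675 ± 0.0611 to 38.2 ± 22.4 CPM and from 0.0422 ± 0.00525 to 4.45 ± 2.56 CPM. The list's summed level was 16.4, 25.4 and 35.4 CPM at day 0 and 398, 904 and 774 CPM at week 4. Class II promoters share a known set of boxes near the start of transcription, among them the Y box, TGATTGG on the strand of the gene or CCAATCA on the other, which contains the NF-Y site CCAAT. RefSeq promoter windows (GRCm38.p6, 250 bases before to 50 after a start) were found for 8 of the 11 genes, and 7 of these held the Y box, 87.5%, where 9% of all genes with such a window held it. All 7 matches lay on the gene's own strand, 45 to 102 bases before the start. They are given here, read 5′ to 3′ along the gene, because members that rose together share this stretch; each holds the Y box in capitals with 45 bases before it and 28 after. All of the stretches are upstream of the annotated start, on chromosome 17. The H2-Aa stretch lies at chr17:34287839-34287918 on the - strand. The H2-Eb1 stretch lies at chr17:34305761-34305840 on the + strand. The H2-Eb2 stretch lies at chr17:34325528-34325607 on the + strand. The H2-Oa stretch lies at chr17:34092289-34092368 on the + strand. The H2-Ob stretch lies at chr17:34238801-34238880 on the + strand. The H2-DMb1 stretch lies at chr17:34153083-34153162 on the + strand. The H2-DMb2 stretch lies at chr17:34145112-34145191 on the + strand. With a sample less the fold moved by over 1.5 times for H2-Ob (log2 fold change 9.77 without day 0 number 3) and H2-Eb2 (log2 fold change 11.58 without day 0 number 3). For H2-Eb2, where 1 age then had 0 counts in every sample left, such a fitted value depends on the prior count and is no bound.
H2-Aa: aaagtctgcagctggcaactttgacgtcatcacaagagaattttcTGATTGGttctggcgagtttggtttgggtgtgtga
H2-Eb1: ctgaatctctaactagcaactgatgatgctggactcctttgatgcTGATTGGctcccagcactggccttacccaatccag
H2-Eb2: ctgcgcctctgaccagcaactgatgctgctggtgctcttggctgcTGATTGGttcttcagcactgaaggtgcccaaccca
H2-Oa: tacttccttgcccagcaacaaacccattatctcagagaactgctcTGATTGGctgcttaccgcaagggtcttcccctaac
H2-Ob: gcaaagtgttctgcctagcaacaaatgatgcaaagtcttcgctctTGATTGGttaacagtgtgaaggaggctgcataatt
H2-DMb1: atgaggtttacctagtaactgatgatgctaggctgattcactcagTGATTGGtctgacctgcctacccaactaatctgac
H2-DMb2: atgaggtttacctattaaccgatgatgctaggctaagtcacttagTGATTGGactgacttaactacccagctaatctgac

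H2-DMa, whose windows hold no match, rose from 2.12 to 14.2 CPM. A match is a description of letters and not of a site in use. For comparison, the letters TTTGAA, or on the other strand TTCAAA, of the cell cycle homology region, were in the windows of 22 of 28 matched mitosis genes (78.6%, 20.2% of all genes), and CCAAT, on either strand, was in as many (41.1% of all genes). The sterol regulatory element TCACNCCAC was in 1 of 16 matched cholesterol synthesis genes (6.25%, 1.44% of all genes).

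Macrophage and dendritic cell genes were mixed, with 9 of 29 higher and 5 lower, where 19.9% of all genes were called higher and 19.1% lower. Their median of 0.13 became -0.27 without day 0 number 1. C1qa, of resident macrophages, stood at 3.45, 5.27 and 8.52 CPM at day 0 and 4.87, 4.56 and 4.08 CPM at week 4, with overlapping groups (adjusted p = 0.62), and C1qb, C1qc, Adgre1 and Mrc1 did not pass either. Cx3cr1 and Cd68 fell (from 4.83 ± 1.215 to 1.75 ± 0.163 CPM and from 4.99 ± 2.29 to 1.003 ± 0.169 CPM). Lyz2 rose from 2.52 ± 0.855 to 33.4 ± 16.1 CPM, Itgam from 5.51 ± 0.267 to 31.7 ± 8.13 CPM, and Flt3, a receptor of dendritic cell precursors, from 0.0596 ± 0.0519 to 1.18 ± 0.597 CPM. Of 21 granulocyte and mast cell genes 6 rose and 5 fell, and 10 were not called. Leaving out 1 sample at a time, 3 to 4 fell, and 2 fell without day 0 number 2 and week 4 number 1 together. The median of 0.97 became 0.20 without week 4 number 1. Among the genes called, the mucosal mast cell proteases Mcpt1 and Mcpt2 rose from 0.479 ± 0.531 to 6.67 ± 4.4 CPM and from 0.462 ± 0.362 to 2.925 ± 1.998 CPM. Siglecf, of eosinophils and tuft cells, rose from 0.322 ± 0.159 to 9.26 ± 5.22 CPM. The neutrophil genes S100a9, Ngp and Ltf fell, S100a9 from 1.43 ± 0.48 to 0.147 ± 0.0749 CPM. Mcpt1 stood higher in between than at either end, at 21.6 ± 9.36 CPM at day 8. Some folds moved by over 1.5 times on leaving out 1 sample: Flt3 (log2 fold change 4.75 without day 0 number 3), Mcpt1 (log2 fold change 5.13 without day 0 number 2), Mcpt2 (log2 fold change 3.45 without day 0 number 2) and Ngp (log2 fold change -7.27 without week 4 number 2). The call was lost on leaving out 1 sample for Ltf (without day 0 number 1 or week 4 number 3; highest adjusted p = 0.106). For Ngp, where 1 age then had 0 counts in every sample left, such a fitted value depends on the prior count and is no bound.

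Interferon-stimulated genes rose in 32 of 54 cases and fell in 5 (median 1.21; 2 fell without day 0 number 1 or week 4 number 1 and 3 without day 0 number 2, while 8 fell without the 8 samples absent from the authors' normalized tables). Isg15 stood at 9.53, 7.65 and 3.19 CPM at day 0 and 18.9, 16.9 and 36 CPM at week 4 (log2 fold change 1.82 ± 0.40 (SE), adjusted p = 2.99e-04). Ido1, which breaks down tryptophan, stood at 0, 0 and 0.0238 CPM at day 0 and 24.4, 21.4 and 28.3 CPM at week 4. Zbp1 rose from 2.53 ± 0.671 to 64.3 ± 6.37 CPM, Oas3 from 2.43 ± 0.44 to 41.8 ± 7.21 CPM, and the immunoproteasome subunit Psmb8 from 9.13 ± 0.69 to 72.3 ± 11.3 CPM. The Ifit1, Ifit2, Ifit3 and Rsad2 genes, read-outs of type I and III interferon, did not pass, and Gbp7, Bst2, Rtp4, Irf9 and Eif2ak2 fell. Genes of epithelial defence rose in 21 of 26 cases and fell in none. Reg3g, a C-type lectin that kills Gram-positive bacteria, stood at 1.04, 1.13 and 0.738 CPM at day 0 and 6362, 9101 and 6082 CPM at week 4 (log2 fold change 12.88 ± 0.80 (SE), adjusted p = 1.77e-15), and Reg3b rose from 10.1 ± 5.32 to 13031 ± 2845 CPM. Nos2, inducible nitric oxide synthase, stood at 0.445, 0.669 and 0.428 CPM at day 0 and 195, 359.7 and 141 CPM at week 4, Duox2, which makes hydrogen peroxide, rose from 0.781 ± 0.441 to 519 ± 317 CPM, Saa1 from 0.0916 ± 0.0813 to 109 ± 82.8 CPM, and Pigr, the receptor that carries IgA into the lumen, from 78.1 ± 47.1 to 3935 ± 936 CPM. Reg4, Reg1, Reg2 and Lcn2 did not pass. Of 28 Toll-like receptor and adaptor genes 10 rose and 5 fell (3 without day 0 number 3 or week 4 number 2). Tlr5, the flagellin receptor, stood at 25.6, 31.7 and 36.9 CPM at day 0 and 0.704, 1.31 and 0.68 CPM at week 4 (log2 fold change -5.05 ± 0.34 (SE), adjusted p = 1.21e-14), while Tlr3 rose from 1.65 ± 0.936 to 38.9 ± 3.4 CPM and Tlr1 from 0.57 ± 0.185 to 15.3 ± 8.73 CPM. Myd88, Irak1 and Traf6 did not pass. The fold moved by over 1.5 times with 1 sample less for Ido1 (log2 fold change 12.68 without day 0 number 3), Duox2 (log2 fold change 8.84 without week 4 number 2) and Saa1 (log2 fold change 11.11 without day 0 number 1). Calls that ended on leaving out a sample were those of Bst2 (without day 0 number 1 or week 4 number 1; highest adjusted p = 0.127), Rtp4 (without day 0 number 1, day 0 number 2, week 4 number 1 or week 4 number 2; highest adjusted p = 0.142) and Eif2ak2 (without day 0 number 1, day 0 number 2 or week 4 number 1; highest adjusted p = 0.0688). Calls gained with a sample left out were those of Ifit3 (without week 4 number 3; adjusted p = 0.0079) and Reg1 (without day 0 number 2; adjusted p = 0.00324). For Ido1, where 1 age then had 0 counts in every sample left, such a fitted value depends on the prior count and is no bound.

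Genes of vessels and matrix fell often. Of 20 endothelial genes 14 fell and none rose (median -3.14). Cdh5, the cadherin of endothelial junctions, stood at 9.05, 29.2 and 39.2 CPM at day 0 and 0.293, 1.09 and 0.951 CPM at week 4 (log2 fold change -4.997 ± 0.77 (SE), adjusted p = 1.91e-06), Kdr, the main VEGF receptor, fell from 55.2 ± 35.4 to 1.99 ± 0.774 CPM, and Plvap from 32.7 ± 20.3 to 1.5 ± 0.843 CPM. Pecam1, also endothelial, and the lymphatic genes Prox1 and Pdpn did not pass (log2 fold change -0.52, 0.06 and 0.06). Day 0 number 1 had less of the list than numbers 2 and 3, with a summed level of 116, 339 and 451 CPM at day 0 and 37.2, 57.4 and 76.8 CPM at week 4. Of 43 collagen and matrix genes 21 fell and none rose (median -1.90), and 15 fell without week 4 number 1. Among the falls were basement membrane genes: Col4a1 stood at 106, 255 and 421 CPM at day 0 and 6.1, 23.8 and 13.3 CPM at week 4, Nid1 fell from 77.5 ± 33.3 to 5.79 ± 3.72 CPM and Lamc1 from 122 ± 14 to 17 ± 7.8 CPM. The fibrillar collagens Col1a1 and Col3a1 did not pass, and Col1a1 stood at 52.3, 60.1 and 68 CPM at day 0 and 20.8, 44.4 and 29 CPM at week 4. Dcn, decorin of fibroblasts, averaged 8.64 CPM at day 0 and 33.8 CPM at week 4 without a call (adjusted p = 0.0896). Single samples moved a fold by over 1.5 times for Plvap (log2 fold change -5.02 without week 4 number 2), Col4a1 (log2 fold change -4.77 without week 4 number 2) and Nid1 (log2 fold change -4.42 without week 4 number 2).

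Mesenchymal signals fell in 12 of 24 Hedgehog and villus mesenchyme genes and rose in 1 (8 fell without day 0 number 2 and week 4 number 1 together). Pdgfra, of the fibroblasts under the villus epithelium, fell from 30.1 ± 10.1 to 2.17 ± 1.12 CPM, Hhip, a Hedgehog target, from 8.36 ± 1.96 to 0.775 ± 0.846 CPM, Foxl1 from 0.822 ± 0.198 to 0.093 ± 0.0247 CPM and Bmp5 from 7.65 ± 4.62 to 0.782 ± 0.62 CPM. Gli1 stood at 3.67, 4.1 and 5.23 CPM at day 0 and 0.939, 0.906 and 1.9 CPM at week 4 without overlap but without a call (adjusted p = 0.092). The ligand Ihh and the receptor Smo did not pass (log2 fold change 0.02 and 0.04), and Bmp2, of enterocytes, rose from 18.1 ± 0.218 to 49.2 ± 5.8 CPM. Of 19 Wnt genes 5 rose (3 without week 4 number 2) and 1 fell, where 19.9% of all genes were called higher and 19.1% lower. Wnt3, the ligand of Paneth cells, rose from 0.772 ± 0.25 to 5.15 ± 2.04 CPM, and Sfrp1, a Wnt inhibitor, fell from 5.97 ± 1.99 to 0.79 ± 0.439 CPM. Smooth muscle genes were seldom called, 3 of 23 higher and none lower, and Myh11 stood at 14.5, 31.8 and 34.4 CPM at day 0 and 10.4, 56.7 and 22.6 CPM at week 4, with more spread within an age than between ages. Of 27 enteric neuron and glia genes 1 rose and 2 fell (6 fell without the 8 samples absent from the authors' normalized tables). The neuronal gene Elavl4 did not pass (adjusted p = 0.296). Of 14 claudins, the strands of tight junctions, 4 rose and 6 fell (2 rose without day 0 number 2 and week 4 number 1 together). Cldn15, a cation pore of the adult gut, stood at 13.65, 27.8 and 24.7 CPM at day 0 and 415, 199 and 153 CPM at week 4, and Cldn19 at 12.7, 12.7 and 13.4 CPM at day 0 and 0.117, 0 and 0.136 CPM at week 4. Cldn8 fell from 155 ± 40.9 to 2.81 ± 1.58 CPM and Cldn2, another pore-forming claudin, from 385 ± 31.8 to 109.6 ± 37.1 CPM. Folds that moved by over 1.5 times on leaving out a sample were those of Hhip (log2 fold change -4.87 without week 4 number 2), Bmp5 (log2 fold change -4.05 without week 4 number 2) and Cldn19 (log2 fold change -6.65 without week 4 number 2).

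Among genes all cells use, 5 of 86 ribosomal protein genes fell and 1 rose (median -0.15). Without day 0 number 1, 1 fell, and 18 fell without the 8 samples absent from the authors' normalized tables. Of 81 nuclear genes of oxidative phosphorylation 13 rose and 2 fell (7 and 5 without week 4 number 1, and 7 rose without day 0 number 3). Of the 13 mitochondrial genes of oxidative phosphorylation 6 rose (0 to 10 with 1 sample left out at a time, the lowest without day 0 number 1 or week 4 number 3 and the highest without week 4 number 2). Clock genes split, 7 of 19 higher and 7 lower. Nr1d1, the repressor REV-ERB alpha, stood at 3.82, 2.55 and 3.21 CPM at day 0 and 104.5, 55.7 and 55.9 CPM at week 4 (log2 fold change 4.49 ± 0.28 (SE), adjusted p = 1.51e-15) and Dbp rose from 1.88 ± 0.104 to 10.3 ± 5.96 CPM, while Per1 fell from 32.5 ± 14.5 to 7.04 ± 0.649 CPM and Cry2 from 30.8 ± 8.06 to 10.7 ± 1.76 CPM. The hour of collection is not in the labels, so age and hour cannot be told apart for these genes. Glucocorticoid response genes fell in 8 of 14 cases and rose in 3. Fkbp5, a sensitive target of the receptor, stood at 77.6, 201 and 274 CPM at day 0 and 6.81, 11.7 and 13.8 CPM at week 4 (log2 fold change -4.10 ± 0.41 (SE), adjusted p = 2.25e-10), Zbtb16 fell from 17.3 ± 18.4 to 0.453 ± 0.477 CPM and Tsc22d3 from 159 ± 46.6 to 38.1 ± 20.4 CPM. Nr3c1, the receptor, rose from 96 ± 12.3 to 222 ± 24.2 CPM. Cyp11a1, the first enzyme of steroid synthesis, which the gut can make, fell from 6.08 ± 2.37 to 0.0784 ± 0.11 CPM. Fkbp5 already stood at 9.54 ± 1.2 CPM at day 2, and was at 104.9 ± 44.3 CPM at week 3 before the low level of week 4. A sample left out moved the fold by over 1.5 times for Dbp (log2 fold change 1.86 without week 4 number 1), Zbtb16 (log2 fold change -4.03 without day 0 number 3) and Cyp11a1 (log2 fold change -8.03 without week 4 number 3).

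Lists of neighbouring tissues were read to see what else a piece could hold. Pancreatic acinar genes summed to 1.93 to 17.1 CPM at day 0 and 1.36 to 2.81 CPM at week 4, with 10 of 15 at 0 in at least one age. Ctrb1, chymotrypsinogen B, stood at 0.927, 12.3 and 4.83 CPM at day 0 and at 0 counts in all week 4 samples, and day 0 number 2 was highest. Fat genes summed to 127 to 194 and 62.5 to 130.5 CPM, mesothelial genes to 119 to 174 and 567 to 673 CPM, of which Krt19, also an epithelial keratin, was the larger part (from 137 ± 31 to 574 ± 64.2 CPM). Red blood cell genes had no call (2 were lower without week 4 number 3) and summed to 238 to 854 and 276 to 1174 CPM. Hbb-bs, the adult beta globin, stood at 88.8, 337 and 291 CPM at day 0 and 284, 117 and 521 CPM at week 4. With a sample less the fold moved by over 1.5 times for Ctrb1 (log2 fold change -9.64 without day 0 number 2). For Ctrb1, where 1 age then had 0 counts in every sample left, such a fitted value depends on the prior count and is no bound.

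Csf1r, Hpgds, Ret and Bmp7, of the macrophage, tuft cell, neuron and mesenchyme lists, had time courses like those of the suckling uptake genes Fcgrt and Dab2. They were picked for this after their values were seen and are given without a test. Of their lists, the tuft cell genes mostly rose from day 0 to week 4 and the mesenchyme genes fell more often than they rose. Between week 2 and week 3, 3 of 29 macrophage list genes fell and none rose. On the tuft cell list 2 of 23 fell and 4 rose, and on the neuron list 2 of 27 fell and none rose. On the mesenchyme list 2 of 24 fell and 2 rose, where 12.3% of all genes were called lower and 11.5% higher. The uptake list did not move as one, and 4 of its 7 genes fell between week 2 and week 3. Cubn of that list averaged 1380 ± 119 CPM at week 2 and 1817 ± 88.9 CPM at week 3. Fcgrt and Dab2 held their level through week 2 and dropped between week 2 and week 3, with means 26.8 and 34.8 times as high at week 2 as at week 3. Csf1r, the growth factor receptor of macrophages, did the same, with 77.9 ± 12.2 CPM at day 0 and 113 ± 13 CPM at week 2, then 13.4 ± 2.23 CPM at week 3 and 6.66 ± 0.375 CPM at week 4. Its week 2 mean was 8.41 times that of week 3, whereas those of the macrophage genes C1qa and Mrc1 were 1.65 and 0.592 times. Hpgds, on the tuft cell list, stood at 76.8 ± 7.89 CPM at week 2 and 7.61 ± 4.92 at week 3, while Trpm5 of the same list stood at 0.355 ± 0.135 and 1.249 ± 0.194 CPM. Ret, the GDNF receptor of enteric neurons, stood at 111 ± 6.05 and 12.4 ± 3.34 CPM at these ages. Bmp7, on the mesenchyme list, stood at 92.2 ± 7.34 and 12.9 ± 2.43 CPM. Over birth to week 4 the log2 fold changes in duodenum were -3.86, -4.29, -2.50 and -3.39 for Csf1r, Hpgds, Ret and Bmp7. Which cells of the wall made these RNAs was not measured.

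**Figure D3:**
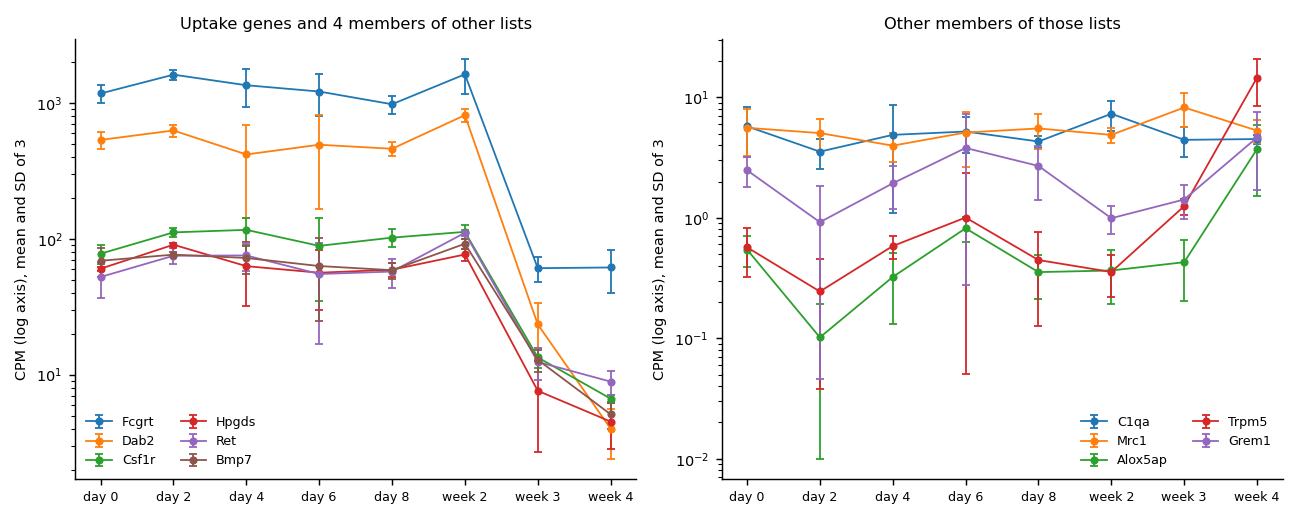
Mean CPM with SD of 3 samples at the 8 ileum ages, on log axes. Left, Fcgrt and Dab2 with Csf1r, Hpgds, Ret and Bmp7, all of which are lower at week 3 than at week 2. Right, 5 chosen members of the macrophage, tuft cell and mesenchyme lists, which have no such drop in common and do not stand for their lists. Alox5ap and Trpm5 averaged 0.365 and 0.355 CPM at week 2, where a drop could hardly be seen.

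The time courses placed the changes in steps. The step from week 2 to week 3 called 4980 genes (23.8%) and that from week 3 to week 4 called 2622 (12.5%), more than in any earlier step. Digestive and uptake genes had made most of their change by week 3. Median log2 differences from day 0 were 0.54, 4.88 and 4.51 at weeks 2, 3 and 4 for disaccharidases, -0.10, -1.54 and -1.80 for lysosomal genes and 0.20, -2.85 and -4.25 for uptake genes. Sis stood at 20.6 ± 3.32 CPM at week 2 and 4440.5 ± 146 CPM at week 3. T cell, MHC class II and tuft cell genes had most of their calls between week 3 and week 4. T cell genes stood at 0.09 at week 3 and 2.15 at week 4, MHC class II genes, which were above day 0 by week 2 (1.94), at 1.20 and 4.48, and tuft cell genes at 0.49 and 2.18. Over the steps from day 0 to day 2 and from day 2 to day 8, 2.59% and 5.13% of all genes were called, and from day 8 to week 2 it was 2% (1.26% higher at day 2, 3.18% lower at day 8, 1.42% higher and 0.579% lower at week 2). Between week 3 and week 4, 29 of 32 T cell genes, 11 of 11 MHC class II genes and 18 of 23 tuft cell genes rose, where 7.1% of all genes were called higher and 5.44% lower. Such counts are a description too, since members near 0 at other ages pass the low-count filter only through the groups where they are high. B cell genes rose in separate steps: 12 of 23 rose between day 2 and day 8, where 1.96% of all genes were called higher, none between day 8 and week 3 in either step, and 21 between week 3 and week 4. Their medians were 1.5, 1.18 and 5.08 at day 8, week 3 and week 4. Of 21 granulocyte and mast cell genes, 6 rose between day 2 and day 8.

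Interferon-stimulated genes moved down and then up. Of 54, 32 fell between week 2 and week 3, where 12.3% of all genes were called lower, and 47 rose between week 3 and week 4. Isg15 stood at 13.4 ± 1.67, 1.92 ± 1.11 and 23.9 ± 10.48 CPM at weeks 2, 3 and 4. The 2 steps share the week 3 samples, so a low week 3 group enters both. Stem cell genes rose early instead: 11 of 22 rose between day 2 and day 8, where 1.96% of all genes were called higher, and Olfm4 stood at 327 ± 62.9 CPM at day 2, 1517 ± 166 at day 8 and 919 ± 66 at week 4. Alpha-defensins had medians of 3.26, 4.40, 5.75 and 6.88 at day 8 and weeks 2, 3 and 4. H19 stood at 849 ± 154 CPM at day 2, 67 ± 4.43 at day 8 and 2.42 ± 1.58 at week 3.

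**Figure D4:**
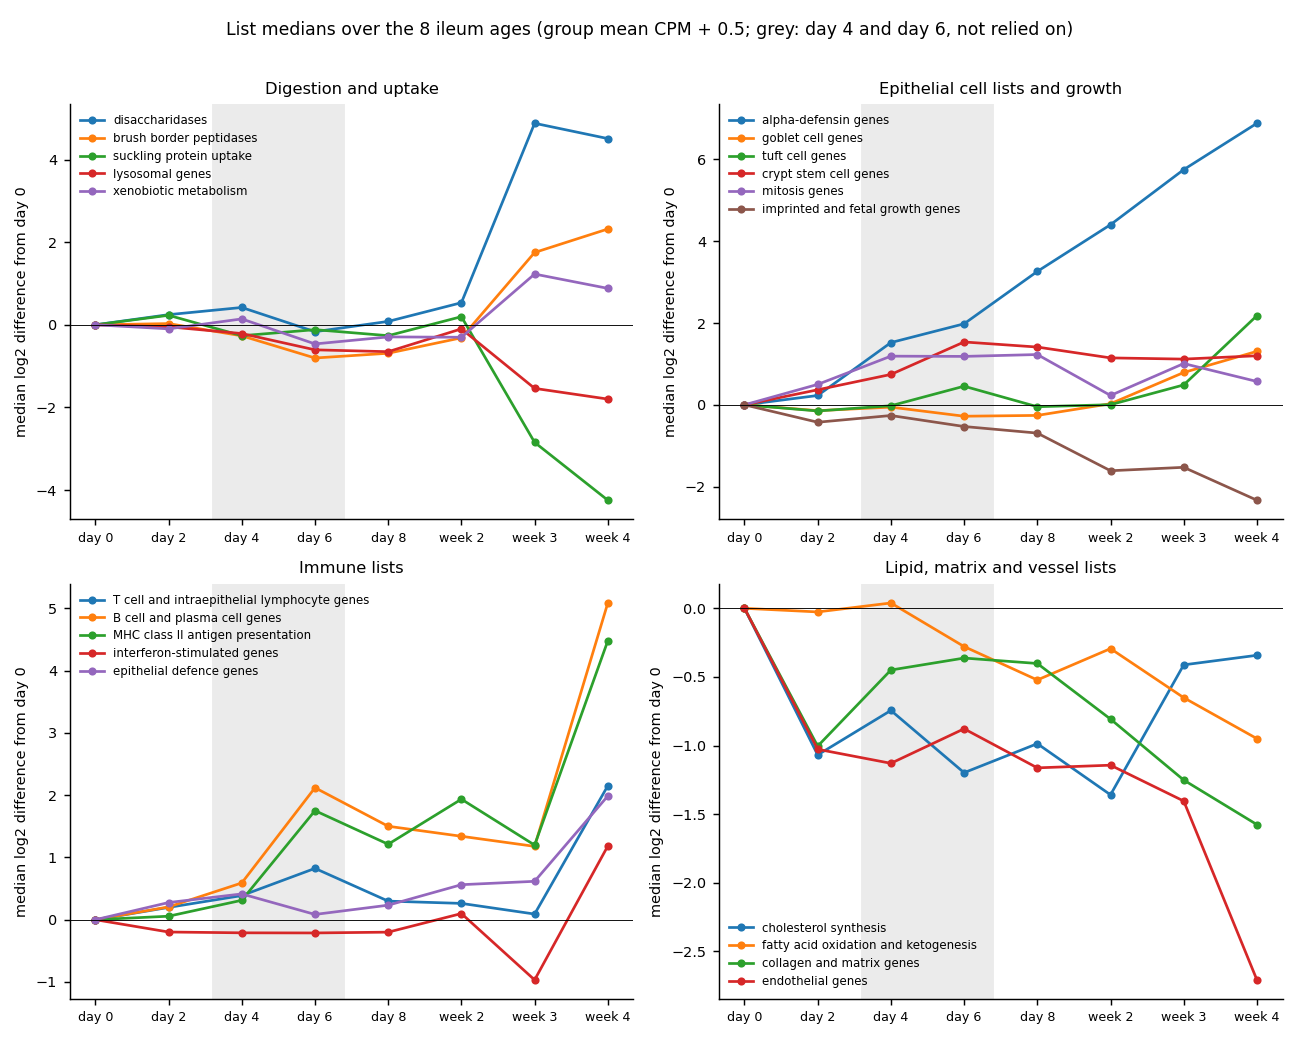
Median over the tested members of each list of the log2 difference from day 0, at the 8 ileum ages (3 samples each; group mean CPM plus 0.5; grey, day 4 and day 6, not relied on because the authors' normalized tables leave out most of these samples). Disaccharidase, uptake and lysosomal lists move between week 2 and week 3, the T cell, MHC class II and tuft cell lists rise furthest between week 3 and week 4, and the stem cell list rises by day 8.

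The duodenum changed in nearly as many genes. Duodenum week 4 against day 0 called 7846 genes (37.5%), and the test of the difference between the changes of the regions called 697 (3.33%), 377 with the ileum above and 320 below. Of the 697, 290 were called in ileum alone, 188 in both regions in one direction, 50 in both in opposite directions and 169 in duodenum alone. This count depends on single samples. It was 251 without ileum day 0 number 1, 1584 without ileum week 4 number 1 and 342 without ileum week 4 number 3. Without duodenum day 0 number 2 or 3 it was 393 or 336, and without duodenum week 4 number 1 or 3 it was 306 or 284. Bile acid genes were among these: Slc10a2 went from 0.834 ± 0.0767 to 0.937 ± 0.371 CPM in duodenum (difference of log2 changes 6.25 ± 0.78 (SE), adjusted p = 6.65e-06), Fabp6 from 3.65 ± 1.82 to 0.351 ± 0.29 CPM (8.66 ± 1.59 (SE), adjusted p = 0.00198) and Fgf15 from 15.2 ± 10.4 to 0.00927 ± 0.0161 CPM (10.67 ± 2.16 (SE), adjusted p = 0.00438). Of 10 bile acid genes 4 differed with the ileum above, where 1.8% of all genes did.

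MHC class II genes rose in both regions, 11 of 11 in each (duodenum background 18.4%), with medians of 4.76 in ileum and 2.23 in duodenum. The rise was larger in ileum, by the test of the difference, for 6 of the 11: Ciita, H2-Ab1, H2-Aa, H2-Eb1, H2-DMb1 and Cd74. H2-Ab1 went from 6.35 ± 2.32 to 37.2 ± 12 CPM in duodenum (difference 2.57 ± 0.63 (SE), adjusted p = 0.0181) and Ciita from 0.945 ± 0.355 to 6.86 ± 2.01 CPM (difference 2.50 ± 0.62 (SE), adjusted p = 0.0191). B cell genes differed in 4 of 23 cases with the ileum above, among them Ighm, which went from 1.45 ± 0.874 to 21.5 ± 0.273 CPM in duodenum (difference 3.32 ± 0.94 (SE), adjusted p = 0.0423). Reg3g rose in both regions and by more in ileum (duodenum from 1.52 ± 0.722 to 1409.6 ± 1102 CPM; difference 3.04 ± 0.78 (SE), adjusted p = 0.0244). Clca1 rose in ileum but went from 576 ± 156 to 608 ± 176 CPM in duodenum (difference 1.79 ± 0.39 (SE), adjusted p = 0.00696). Fut2 went from 12.4 ± 3.17 to 3.49 ± 2.36 CPM in duodenum, while its mean rose in ileum (difference 3.20 ± 0.61 (SE), adjusted p = 0.00207). That ileum rise was carried by week 4 number 2 (91.7 CPM). Numbers 1 and 3 had 26.2 and 23.2 CPM, against up to 23.3 CPM at day 0. Lyz2, Itgam and Flt3 of the macrophage and dendritic list differed with the ileum above, and Lyz2 went from 14.6 ± 13.5 to 20.7 ± 14.7 CPM in duodenum (difference 3.22 ± 0.86 (SE), adjusted p = 0.0311). Xenobiotic genes were the reverse case, with 14 of 49 changes lower in ileum than in duodenum, where 1.53% of all genes were, and none higher. Cyp3a11 rose in both (duodenum from 0.292 ± 0.136 to 1279.6 ± 149 CPM), and its difference did not pass (adjusted p = 0.833). No difference was called among the disaccharidase, stem cell, mitosis, amino acid carrier, collagen or endothelial lists. With 3.33% of all genes called, lists of this size would hold few calls, so the absence does not set these lists apart.

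**Figure D5:**
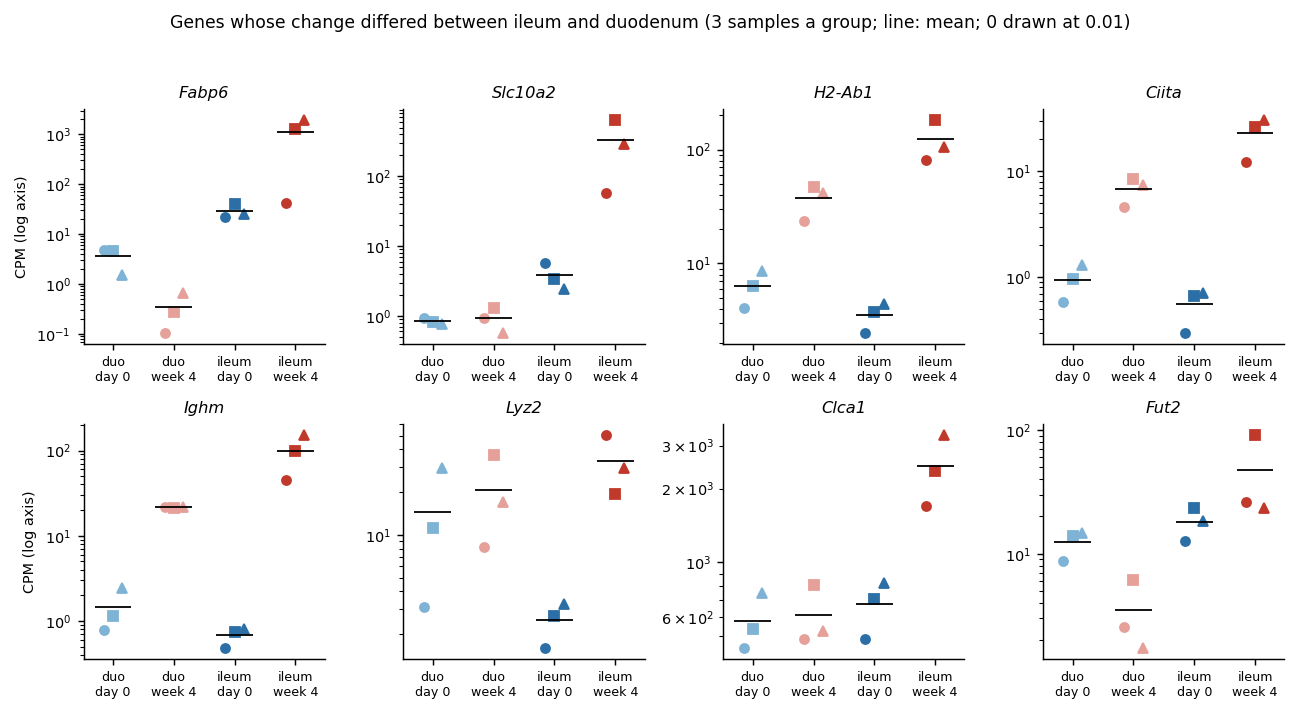
CPM per sample of 8 genes in duodenum (pale) and ileum (full colour) at day 0 (blue) and week 4 (red), 3 samples a group, on log axes with 0 drawn at 0.01. Fabp6 and Slc10a2 are highest in ileum at week 4, with 1 week 4 ileum sample far below the other 2, and the MHC class II genes H2-Ab1 and Ciita rise in both regions.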

How the data were processed

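RNA was sequenced from 48 samples of duodenum and ileum, 3 at each of 8 ages per region. The authors deposited estimated counts per gene, already whole numbers, and for ileum a normalized signal, which equals the estimated counts divided by 1 size factor per column. STAR 2.6.1d, Salmon 0.14.2, DESeq2 1.30.1 and the build mm10 are named in the submitters' processing notes, with no roles, and the annotation release is not given in the sources used here. Every column matched a sample's labels. Total counts ran from 16824021 to 42029626 in the 6 ileum samples compared, and shallow samples read low genes with less precision.

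Counts were rescaled by TMM and tested with edgeR 4.0.16 in R 4.3.3 by robust quasi-likelihood fits to all 48 samples (16 groups, no covariate) on the 20901 of 54532 genes that passed filterByExpr. Benjamini-Hochberg adjustment ran over all tested genes at 0.05, and the standard error is the log2 fold change over the root of F. The script was tested on simulated data. A fold against a group with no counts was bounded with 3 counts over the group. Alternatives used DESeq2 1.42.0, limma 3.58.1 on log2 of the deposited normalized signal plus 1 or 0.1, other filters and sample sets, and each replicate left out.

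The members and the 52 gene lists were chosen with earlier results of these data known, and 5 listed symbols were not found by name in the table. Genes were named from a fixed panel, from the called member of each list with the largest rise or fall (no overlap, mean log2 CPM of at least 1), and from the 5 largest rises and falls over all genes (mean log2 CPM of at least 3). The other genes named were chosen from the lists after their values were seen. Some genes that the rule names are not reported here.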

Additional observations from a re-analysis of the deposited data

Results flagged for a closer look

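The change from day 0 to week 4 differed between ileum and duodenum for 697 genes by the test of the difference in edgeR's fit. Among the genes named here, the ileum change was the lower one on the log2 scale for Mcoln3 (-2.89), Fbp1 (-1.73) and Krt7 (-0.999). It was the higher one for Bmp2 (1.29), Clca1 (1.79), Xpnpep2 (1.91), Tlr1 (2.43), Ciita (2.50), H2-Ab1 (2.57), Reg3g (3.04), Fut2 (3.20), Lyz2 (3.22), Ighm (3.32), Defa36 (6.10), Slc10a2 (6.25), Igf2bp1 (6.53), Fabp6 (8.66) and Fgf15 (10.67). Igf2bp1, Fgf15 and Defa36 rest on groups at or near 0 counts, where the fitted size depends on the prior count and is no measure of fold. The ileum rise of Fut2 was carried by week 4 number 2.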

How the results depend on the processing

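The count of genes called between day 0 and week 4 stayed within 1.5 times of 8164 under every alternative run, from 6435 with the compared groups alone to 10393 without the 8 samples that the authors' normalized tables leave out. With 1 replicate left out at a time it was 6806 to 7861, and without day 0 number 2 and week 4 number 1 together, chosen after seeing the data, 6889. The count of region differences, 697, was less stable. It was 366 with no filter on low counts, 1219 with DESeq2, 377 with only the compared groups, 3146 without the 8 samples and 1084 without the 2 ileum samples together, and 251 to 1584 with 1 replicate left out at a time. The cause was not tested. Same-numbered samples of day 0 and week 4 correlated at 0.0761, -0.0954 and 0.112 in their deviations from the group means. With 3 samples an age this cannot tell whether the numbers pair samples. The labels do not say, and the main fit did not use the numbers. With the number as a replicate block, 7855 genes were called between the ages and 548 between the regions. For the 122 genes of the naming rule, 2145 results under alternatives kept direction and side of the threshold, 28 lost it, 23 gained it and 0 reversed. The medians of some lists changed sign. Without week 4 number 1, alone or with day 0 number 2, that of the hexose list was -0.303 or -0.117, and with a replicate left out it ran up to 0.579. That of the smooth muscle list ran from -0.146 to 0.804. With a mean count of at least 10 or with only the compared groups, where fewer genes were tested, the lymphoid follicle and M cell genes, median log2 fold change, had -0.154 or -0.0472 and the fat list -1.08 or -1.6. The acinar list came to 0 without the 2 samples. Over all alternatives other medians that changed sign were those of the fetal epithelium list, -0.342 (range -0.549 to 0.841), the macrophage list, 0.134 (range -0.271 to 0.537), the red blood cell list, 0.23 (range -0.328 to 0.597), the enteroendocrine list, 0.219 (range -0.0871 to 0.424), the iron and calcium list, 0.034 (range -0.219 to 0.111), and nuclear oxidative phosphorylation, 0.254 (range -0.00369 to 0.316). Depth and 3 samples a group limit low genes most.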
